A study of Mus musculus with 6 samples.

Results

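In BCR-ABL-positive mouse cells, 27 genes had higher RNA in each of 3 lines edited against Cdk6 than in any of 3 lines with wild-type Cdk6. They were selected on the measured values of the same 6 libraries. A gene was taken where the lowest of the 3 edited libraries reached at least 5 CPM (the count divided by the library's total and multiplied by 1000000) and at least 1.3 times the highest of the 3 wild-type libraries. Of 25965 rows in the deposited count table, 8682 reached 5 CPM in their lowest edited library and 41 of these (0.472%) met the ratio. The 27 genes described here are what is left after 14 symbols were set aside: 3 starting with Slc, 4 starting with Zfp, 4 starting with H2- and 3 by full name. Because the groups were separated by construction, the difference between them is given as a description and no test of it is read as support.

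All 6 lines carry the BCR-ABL oncogene, a fused and permanently active tyrosine kinase, and were grown in the same serum-containing medium. The wild-type lines WT1, WT2 and WT3 received the control plasmid pSpCas9(BB)-2A-GFP(px458). The lines KO1, KO2 and KO3, described by the submitters as hCDK6del, received the Cas9 plasmid with guide RNAs against CDK6. GFP-positive cells were sorted and expanded from single cells, and loss of the protein was checked by Western blot, per the labels' protocols. Each library is therefore 1 line grown from 1 cell, and differences between clones that do not come from the edit cannot be told apart from it. CDK6 is a cyclin-dependent kinase that pairs with D-type cyclins to drive cells through G1, and in blood cells it also acts at chromatin as a regulator of transcription. BCR-ABL-driven lymphoid leukaemia is a setting in which both roles have been studied.

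Libraries held 17859519 to 24108563 counts. Cdk6 RNA itself stood at 46.7 CPM ± 8.31 (SD, n = 3) in the wild-type lines and 51.7 ± 18.1 (SD, n = 3) in the edited lines, so the RNA level does not separate the groups. A small edit need not change the RNA level, and the table carries no information on the edited sequence. The first principal component held 68.0% of the variance and set KO2 (score 112.4) apart from WT2 (12.6) and from the other libraries (-38.5 to -28.3). B-lineage marker genes summed to 3334 to 4793 CPM in every library and included no marker at 0. The T cell markers summed to 48.4 to 82.9 CPM in 5 libraries, nearly all from Lck, and to 1.29 CPM in KO2, with Cd3e, Cd4 and Cd8a at 0 throughout. KO2 was highest for NK cell markers (79.9 CPM beside 16.6 to 35.3), fibroblast and endothelial markers (154.0 beside 78.5 to 114.5) and plasma cell markers (434.1 beside 179.3 to 277.8), and lowest for macrophage and monocyte markers (22.1 beside 27.3 to 49.0). Some of these sums rested on few genes. Only 2 of 8 NK cell and 1 of 6 fibroblast and endothelial markers were high enough to test. In all libraries, 5 of the NK cell and 3 of the fibroblast and endothelial markers were at 0. Granulocyte, erythroid, and megakaryocyte and mast cell markers each summed to at most 7.39 CPM. The part of these differences in the members' values was not tested.

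Most members differed by a modest factor. The mean CPM of the edited lines divided by that of the wild-type lines ran from 1.43 to 5.18, with a median of 1.76, and 5 members reached a ratio of 2 or more. By edgeR's quasi-likelihood test with Benjamini-Hochberg adjustment, 0 of 27 members and 0 of 10896 genes (0%) had an adjusted p under 0.05, and the members' adjusted p lay between 0.475 and 0.495. At an unadjusted p under 0.05, 27 of 27 members and 474 of 10896 genes (4.35%) were higher in the edited lines by the same test. DESeq2 called 17 of the 27 members, beside 79 of 11212 genes (0.705%) higher in the edited lines and 139 lower. Every edited library lay above every wild-type library in 1153 of 10896 tested genes (10.6%) and below in 946. After TMM scaling, a count added after seeing the data, 963 (8.84%) lay above and 1171 below, so the balance turned with the scaling. The members' median log2 fold change from edgeR was 0.80, beside 0.01 over all tested genes. The rule fixed the separation of every member. How many members each test called was not fixed by the rule but was favoured by it, so no share is read as support.

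**Figure D1:**
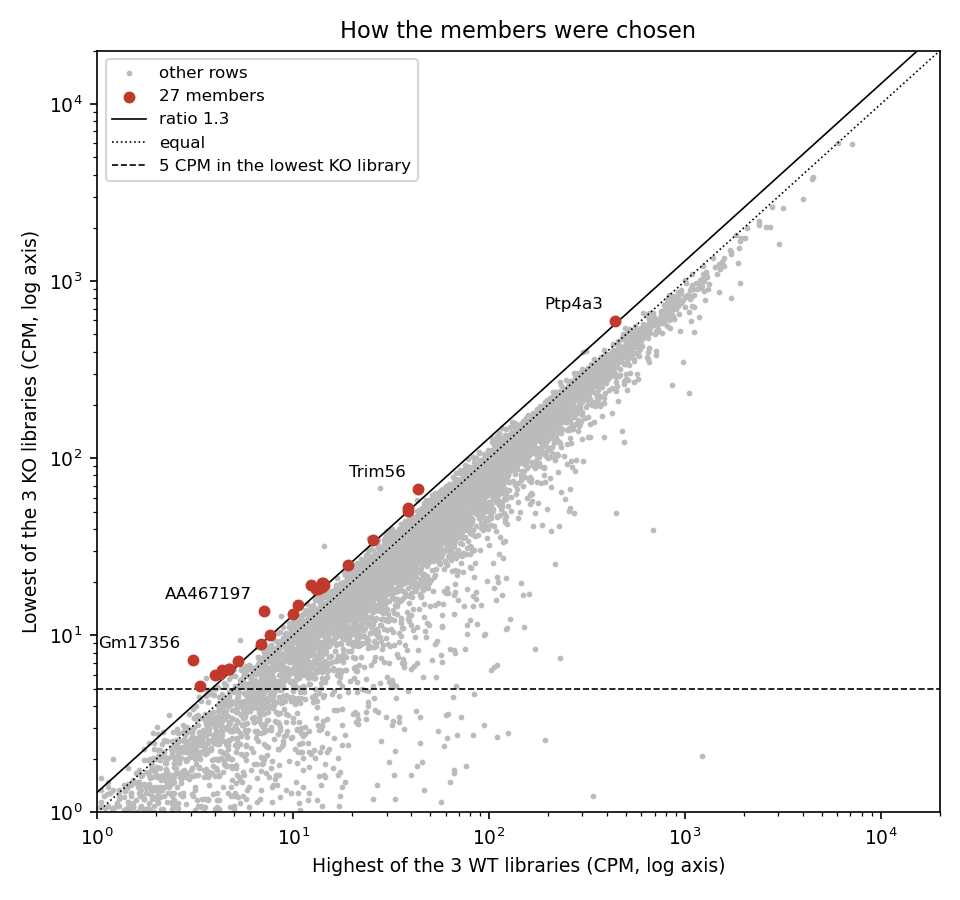
Lowest of the 3 edited libraries against the highest of the 3 wild-type libraries, both in CPM on log axes; each point is 1 row of the table and the 27 members are red. The solid line marks the ratio of 1.3, the dotted line equality and the dashed line 5 CPM, and most members lie close to the solid line.

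Counting error limits how firmly the ratio is known for the low members. For the lowest edited library over the highest wild-type library, exact 95% intervals from the 2 counts, which cover counting error only, had a lower bound above 1 in 27 of 27 members and of at least 1.3 in 5. These 5 were Gm17356, AA467197, Neat1, Trim56 and Ptp4a3. The rule selected on these same 2 values in each member, so the bounds are no test of the difference. Just inside the threshold were N4bp3 (1.301), Fbxl20 (1.303), Il12a (1.305) and Ccbl1 (1.309), and just outside were Cep250 (1.295), Rad52 (1.286), Ggcx (1.284) and Cbfa2t3 (1.278). A further 49 rows had ratios from 1.2 to 1.3. In these bulk libraries a larger share of expressing cells and more RNA per cell cannot be told apart.

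The members fall into 5 groups by what their products do, a grouping made once the members were known. They comprise 6 genes placed under innate immunity and cytokines, 10 of the nucleus and gene regulation, 4 of membranes and organelles, 2 of the extracellular matrix, and 5 enzymes or signalling proteins. The 6 include Gm17356, a T cell receptor segment, and AA467197, which encodes a mitochondrial protein, so the label is loose for these. The members were spread over 12 chromosomes.

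**Figure D2:**
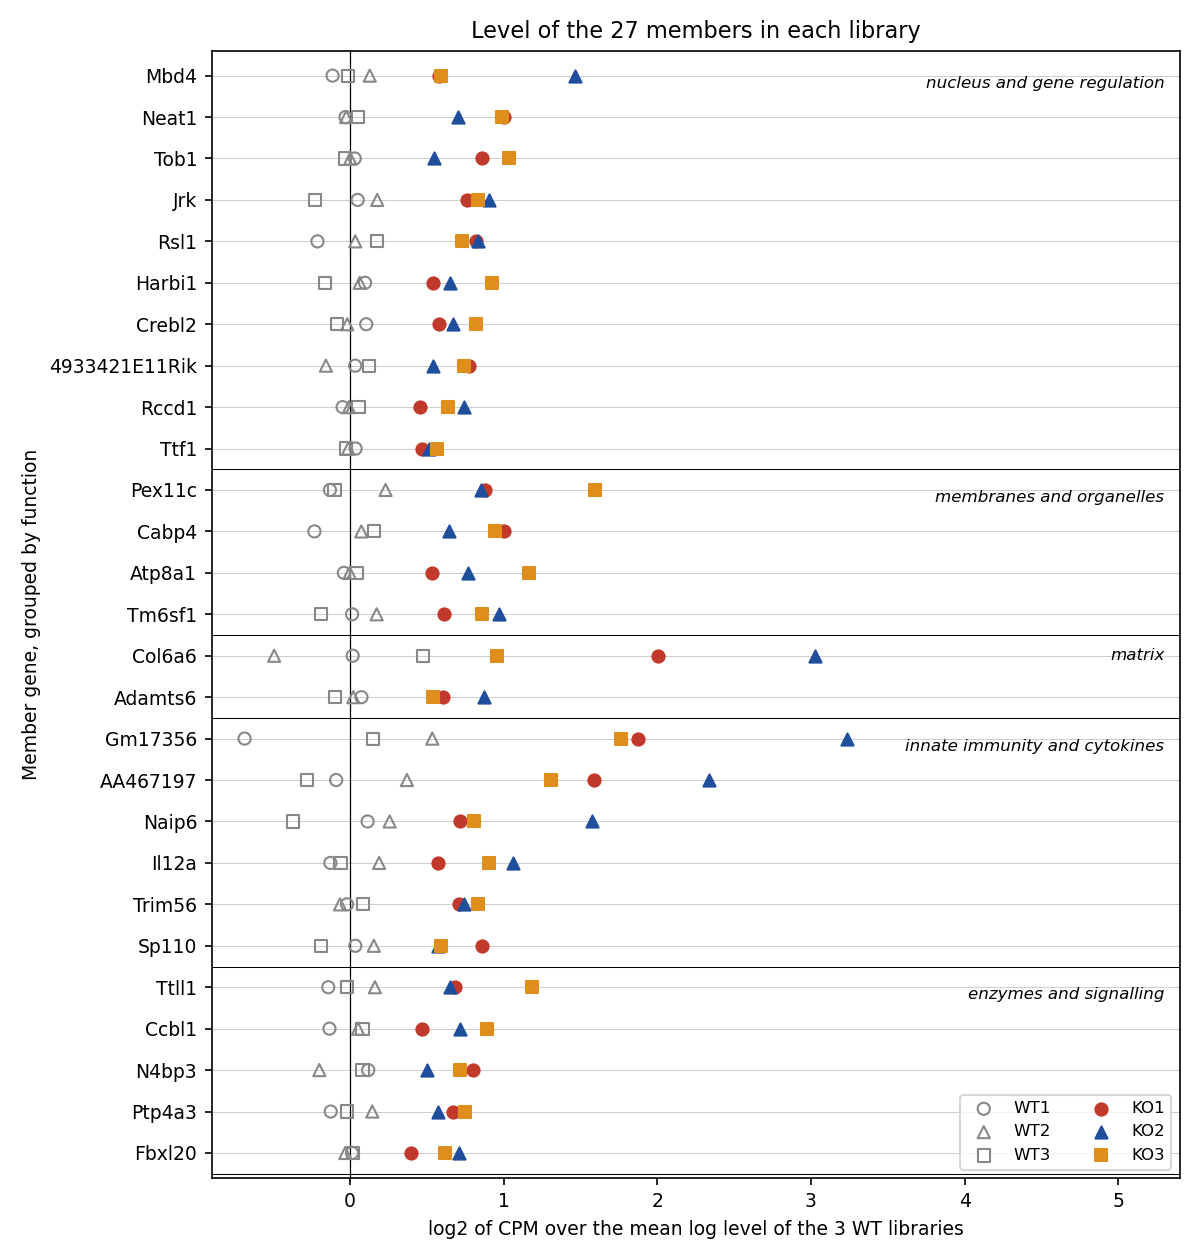
Level of each member in each library, as the log2 of its CPM over the mean log level of the 3 wild-type libraries, with members grouped by function; open grey symbols are wild-type lines and filled symbols edited lines. No filled symbol overlaps an open one within a row, and Gm17356, Col6a6, AA467197, Naip6 and Mbd4 reach furthest right in KO2.

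Among the innate immune genes, TRIM56 is an interferon-inducible E3 ubiquitin ligase known for supporting antiviral signalling. Trim56 (chr5:137111286-137116462) stood at 40.4, 39.1 and 43.4 CPM in the wild-type lines 1 to 3, then at 66.9, 68.4 and 73.0 CPM in the edited lines 1 to 3, an order kept for all triplets of values here. The edited lines lay close together and well clear of the wild-type lines, with a mean ratio of 1.69. Its edgeR log2 fold change was 0.74 ± 0.08 (SE). Other genes of cytosolic DNA and RNA sensing were mixed. Of 7 tested, Trim56 included, 3 had every edited library above every wild-type library, beside 10.6% of all tested genes, and 1 had every edited library below. Mb21d1, which encodes the DNA sensor cGAS, was at 13.7, 14.9 and 19.3 CPM in the wild-type lines and at 12.8, 0 and 13.2 CPM in the edited lines, where KO2 had no count. Irf3, the transcription factor at the end of the route, was at 70.2 to 81.0 CPM in the wild-type lines and 88.9 to 96.3 CPM in the edited lines. Ikbke was also higher without overlap, at 14.1 to 18.2 CPM against 19.5 to 21.7 CPM. Ticam1 had a log2 fold change of 0.50, with KO1 inside the wild-type range. Tbk1, the kinase that acts on IRF3, had a log2 fold change of 0.08. Tmem173, which encodes STING, had 0.05 with edited lines on both sides of the wild-type lines.

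SP110 is a nuclear body protein of the SP100 family with roles in macrophage defence. Sp110 (chr1:85570735-85610850) stood at 13.3, 14.4 and 11.4 CPM in the wild-type lines and at 23.5, 19.2 and 19.5 CPM in the edited lines. Its relatives showed the same order of groups: Sp140, whose annotated span overlaps it, was at 3.95 to 4.72 CPM against 5.68 to 7.56 CPM, and Sp100 at 15.3 to 17.7 CPM against 19.2 to 32.5 CPM. Pml, the core of a related nuclear body, overlapped between the groups. Sp110 and its relatives lie among similar copies in the mouse genome, so reads could be split between them in the authors' counting.

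NAIP proteins detect bacterial flagellin and secretion system proteins in the cytosol and assemble with NLRC4 into an inflammasome. Naip6 (chr13:100281121-100316616) stood at 12.1, 13.4 and 8.65 CPM in the wild-type lines and at 18.4, 33.4 and 19.6 CPM in the edited lines. Naip5, the next expressed gene 30191 bases away, was at 8.50, 9.44 and 9.78 CPM and then at 15.8, 29.8 and 10.9 CPM. Naip2 was at 21.2, 20.8 and 22.2 CPM and then at 41.4, 50.3 and 26.9 CPM. All 3 were highest in KO2, and in Naip5 and Naip2 the lowest edited line exceeded the highest wild-type line by less than the factor of 1.3. Nlrc4 overlapped, since KO3 (5.73 CPM) lay within the wild-type range of 4.31 to 10.4 CPM. The NAIP genes are near-identical copies, so their separate values are uncertain.

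IL12A is the p35 chain that IL-12 and IL-35 share. Il12a (chr3:68690644-68698550) stood at 5.48, 6.82 and 5.73 CPM in the wild-type lines and at 8.90, 12.5 and 11.2 CPM in the edited lines. Of the partner chains, Il12b had no count in any library. Ebi3, the partner in IL-35, ranged from 0.456 to 8.24 CPM in the wild-type lines and from 0.098 to 2.13 CPM in the edited lines, so the 2 chains had opposite orders of their group means.

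The members with the largest ratio of lowest edited to highest wild-type library carry clone-like symbols and are named here after their values were seen. Gm17356 (chr13:19260885-19263397) is an older symbol of Trgc3 in RefSeq, a constant segment of the T cell receptor gamma locus. It stood at 1.33, 3.10 and 2.37 CPM in the wild-type lines and at 7.84, 20.1 and 7.25 CPM in the edited lines, with a ratio of lowest to highest of 2.34 (95% counting interval 1.72 to 3.22). The other receptor constant genes looked for, among them Trac, Trbc1, Trbc2 and Trdc, had no row under those symbols, so their level is unknown. The CD3 chains were at or near 0: Cd3e was at 0, and Cd3d and Cd3g stayed at or under 0.728 CPM. Lck, a kinase that these cells also express, was at 64.4 to 66.5 CPM in the wild-type lines and at 81.8, 0.397 and 48.1 CPM in the edited lines, which does not follow the order of Gm17356.

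AA467197 (chr2:122637887-122641076), known as Nmes1, encodes a small mitochondrial protein related to NDUFA4. It stood at 5.18, 7.14 and 4.55 CPM in the wild-type lines and at 16.6, 27.9 and 13.7 CPM in the edited lines, a mean ratio of 3.45. Ndufa4 showed the opposite order, at 145 to 168 CPM in the wild-type lines and 115 to 143 CPM in the edited lines. The AA467197 transcript is also the host of the microRNA miR-147, whose mature 5-prime arm lies at chr2:122640814-122640837. It is shown because a read on the host cannot be told from a read on the precursor, which takes up 6.57% of the annotated exon bases. Capitals mark the seed, bases 2 to 8.
mmu-miR-147-5p: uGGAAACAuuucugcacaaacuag
The mature microRNA was not measured in these libraries.

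The nuclear group was led by level by Ttf1, Mbd4 and Neat1. NEAT1 is the long non-coding RNA around which paraspeckles form, nuclear bodies that hold back proteins and edited RNAs. Neat1 (chr19:5824708-5845480) stood at 11.6, 11.6 and 12.3 CPM in the wild-type lines and at 23.7, 19.3 and 23.5 CPM in the edited lines. The wild-type lines differed by an SD of 0.388 CPM, and the log2 fold change was 0.88 ± 0.12 (SE). Paraspeckle proteins did not share this direction: Nono was at 404 to 407 CPM against 362 to 388 CPM, and Pspc1 had a log2 fold change of -0.35. Malat1, the neighbouring nuclear RNA, was at 61.9 to 76.7 CPM against 75.9 to 104 CPM, with KO3 just inside the wild-type range.

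TOB1 belongs to the antiproliferative TOB and BTG proteins, which recruit the deadenylase that shortens mRNA tails. Tob1 (chr11:94209842-94215495) stood at 4.23, 4.14 and 4.05 CPM in the wild-type lines and at 7.50, 6.05 and 8.47 CPM in the edited lines. Its close relative Tob2, at 56.3 to 61.8 CPM in the wild-type lines, had a log2 fold change of -0.09. Btg1 was at 55.3 CPM in KO2 but at 15.7 and 13.2 CPM in KO1 and KO3, within or below the wild-type range of 14.8 to 23.0 CPM.

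MBD4 is a glycosylase that removes thymine or uracil opposite guanine at methylated CpG sites. Mbd4 (chr6:115840697-115853400) stood at 11.5, 13.6 and 12.3 CPM in the wild-type lines and at 18.5, 34.3 and 18.8 CPM in the edited lines. UNG, the main uracil glycosylase, showed the opposite order, with Ung at 90.6, 93.5 and 88.2 CPM and then at 69.0, 60.2 and 63.0 CPM. Tdg, which encodes the other thymine glycosylase, had a log2 fold change of -0.08, and Mbd3 and Mbd6, which encode other methyl-CpG binding domain proteins, had -0.17 and 0.20.

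TTF1 stops RNA polymerase I at the end of ribosomal RNA genes. Ttf1 (chr2:29060199-29087656) had the smallest mean ratio of all members, 1.43, at 25.6, 24.7 and 24.5 CPM in the wild-type lines and 34.5, 35.6 and 36.8 CPM in the edited lines. The libraries lay close together within each group, with an SD of 0.555 CPM in the wild-type lines and 1.17 CPM in the edited lines. Genes of the polymerase I machinery beside it had log2 fold changes of -0.12 for Ubtf, 0.05 for Polr1a and -0.06 for Polr1b. Baz2a, also examined, had 0.24 with every edited library narrowly above every wild-type library, and Smarca5 had -0.14.

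JRK and HARBI1 descend from DNA transposases, and RSL1 is a KRAB zinc finger repressor that sets sex-dependent gene expression in liver. Jrk (chr15:74702412-74709322) stood at 3.65, 3.99 and 3.01 CPM in the wild-type lines and at 5.99, 6.59 and 6.27 CPM in the edited lines. Rsl1 (chr13:67173182-67183499) stood at 3.32, 3.93 and 4.35 CPM and then at 6.78, 6.84 and 6.37 CPM. Both showed tight edited groups at levels where a member rested on as few as 107 counts in its lowest edited library for Jrk and 130 for Rsl1. Harbi1, Crebl2, Rccd1 and 4933421E11Rik complete the group and are named after their values were seen, with mean ratios of 1.64, 1.61, 1.53 and 1.61. Crebl2 encodes a small bZIP protein related to CREB, Rccd1 a partner of the histone demethylase KDM8, and 4933421E11Rik is an older symbol of Lrif1, whose product binds HP1. Kdm8 itself had a log2 fold change of -0.17, and Creb1 had 0.15. Of the HP1 genes, Cbx5 had 0.21, Cbx1 had -0.20 and Cbx3 had -0.09.

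Rsl1 lies in a KRAB zinc finger cluster on chromosome 13, where 11 of the 25 other genes examined had every edited library above every wild-type library, beside 10.6% of all tested genes. Of the 20 with a current symbol starting with Zfp, 10 did. Zfp456, Zfp874a and Zfp874b, which are among these, met the same ratio and floor but were set aside by symbol. Zfp874b was at 4.06 to 4.25 CPM in the wild-type lines and at 6.55, 8.18 and 11.6 CPM in the edited lines. These genes are similar in sequence, so reads may be shared between them.

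Of the membrane and organelle genes, Atp8a1 encodes a flippase that moves phosphatidylserine to the inner leaflet. Atp8a1 (chr5:67618139-67847484) stood at 12.3, 12.6 and 13.04 CPM in the wild-type lines and at 18.4, 21.6 and 28.5 CPM in the edited lines. Tmem30a, the shared flippase subunit, was at 67.5 to 80.6 CPM against 80.5 to 106 CPM, where KO1 overlapped the wild-type lines. Atp10a was at 91.4 to 103 CPM in the wild-type lines and at 111 to 152 CPM in the edited lines, without overlap.

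Pex11c, the former symbol of Pex11g, encodes a protein of peroxisome division. It stood at 2.61, 3.36 and 2.67 CPM in the wild-type lines and at 5.26, 5.15 and 8.62 CPM in the edited lines, with KO3 the highest and a mean ratio of 2.20. Annotated exons of Pex11c share 41.1% of their bases with a gene model on the other strand, and whether the authors counted by strand is not given in the sources used here. Tm6sf1, a multispan lysosomal membrane protein gene, stood at 34.5, 38.6 and 30.04 CPM and then at 52.2, 66.9 and 62.1 CPM. Cabp4, which encodes a calcium sensor best known from photoreceptor synapses, stood at 10.8, 13.3 and 14.1 CPM and then at 25.3, 19.8 and 24.4 CPM. Both separate clearly, with KO2 highest for Tm6sf1 and lowest of the edited lines for Cabp4.

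The matrix genes differed widely in how even they were. Col6a6 (chr9:105689417-105828246), a collagen VI chain, stood at 10.2, 7.19 and 14.1 CPM in the wild-type lines and at 40.6, 82.4 and 19.6 CPM in the edited lines. KO2 was 2.74 times the mean of KO1 and KO3, and without WT2 and KO2 the mean ratio of 4.53 became 2.48. No other collagen VI gene was high enough to test. Adamts6, a secreted metalloprotease gene, stood at 5.23, 5.04 and 4.64 CPM and then at 7.56, 9.07 and 7.20 CPM, a narrow spread in both groups.

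The most abundant member was Ptp4a3 (chr15:73723145-73758766), which encodes the phosphatase PRL-3, known from metastatic and leukaemic cells. Its level was 365.8, 441.2 and 393.8 CPM in the wild-type lines and 635.6, 592.3 and 671.7 CPM in the edited lines. The groups were 400.3 ± 38.1 (SD, n = 3) and 633.2 ± 39.7 CPM (SD, n = 3), with an edgeR log2 fold change of 0.64 ± 0.09 (SE). The other PRL phosphatases did not go with it. Ptp4a2, at a like level of 329 to 372 CPM in the wild-type lines, was at 294 to 345 CPM in the edited lines, and Ptp4a1 had a log2 fold change of -0.21 ± 0.26 (SE).

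Of the remaining enzymes, Ttll1 encodes the catalytic subunit of a tubulin polyglutamylase. It stood at 8.59, 10.6 and 9.34 CPM in the wild-type lines and at 15.2, 14.9 and 21.6 CPM in the edited lines. The subunits that work with TTLL1 did not share this: Tpgs1 and Tpgs2 had log2 fold changes of -0.20 and -0.14. Fbxl20, an F-box substrate receptor, stood at 38.6, 37.5 and 38.7 CPM and then at 50.4, 62.7 and 58.8 CPM. The SCF core genes Skp1a, Cul1 and Rbx1 had log2 fold changes of -0.09, -0.24 and -0.11. Ccbl1, the former symbol of Kyat1 for a kynurenine aminotransferase, stood at 6.60, 7.50 and 7.66 CPM and then at 10.0, 11.9 and 13.4 CPM. N4bp3, whose product binds the ubiquitin ligase NEDD4, stood at 19.2, 15.4 and 18.7 CPM and then at 30.8, 24.9 and 29.0 CPM, while Nedd4 had a log2 fold change of -0.05. The partners named above beside these members had log2 fold changes between -0.24 and -0.05, but more genes were examined. With N4bp3, Itch had 0.31 with every edited library above every wild-type library, and Nedd4l had -0.15. N4bp1 and N4bp2 had 0.02 each.

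**Figure D3:**
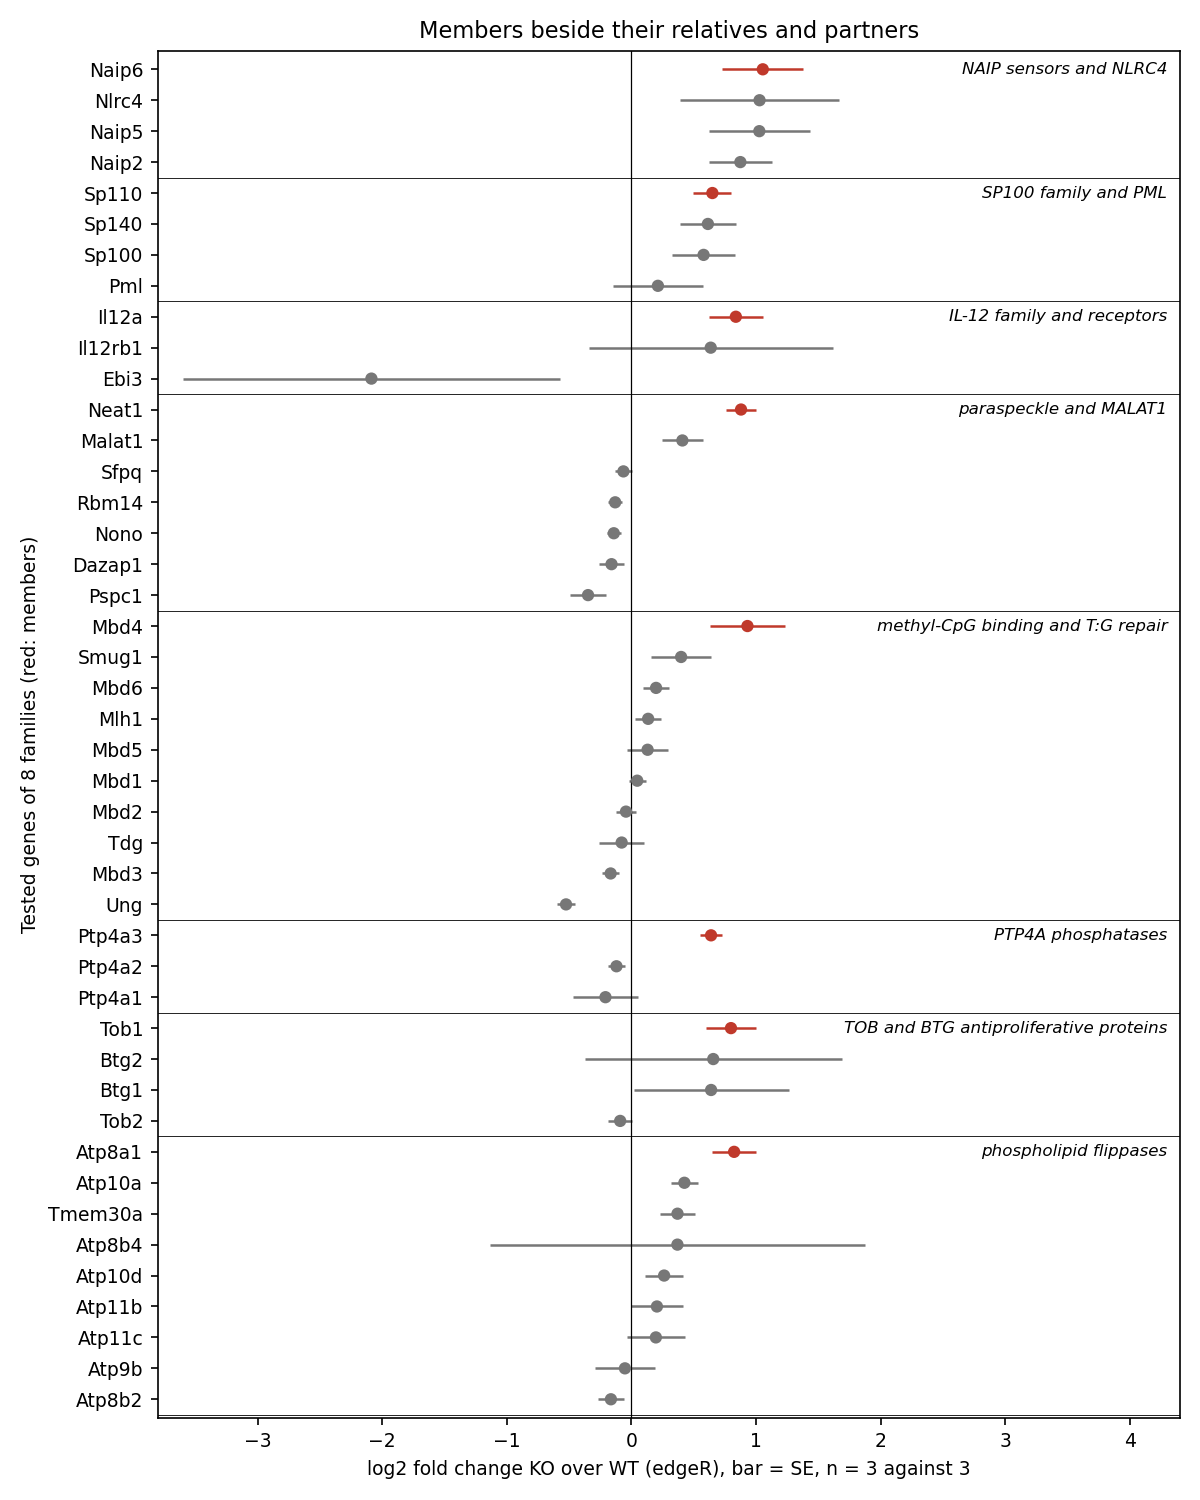
edgeR log2 fold change, edited over wild-type lines (n = 3 against 3), with its SE as a bar, for the tested genes of 8 families that hold a member; members are red and relatives or partners grey. The NAIP and SP100 relatives lie to the right with their members, whereas the paraspeckle, PTP4A and glycosylase relatives lie near or left of 0 except Malat1 (0.41) and Smug1 (0.40).

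The edited lines contributed unequally to single members, while their medians over the set were closer. The rule required each edited line to exceed every wild-type line in each member, so similar medians were partly fixed in advance. KO1 was the highest edited line in 5 members, KO2 in 12 and KO3 in 10. Median log2 levels of the members over the wild-type mean were 0.71 in KO1, 0.74 in KO2 and 0.83 in KO3. KO2 reached at least 1.5 times the mean of KO1 and KO3 in 5 members: Col6a6 (2.74), Gm17356 (2.66), AA467197 (1.85), Mbd4 (1.84) and Naip6 (1.76). Without WT2 and KO2 the mean ratios of the members ran from 1.41 to 4.08, and only that of Col6a6 moved by more than 1.5 times. The ratio was larger without them in 13 members.

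**Figure D4:**
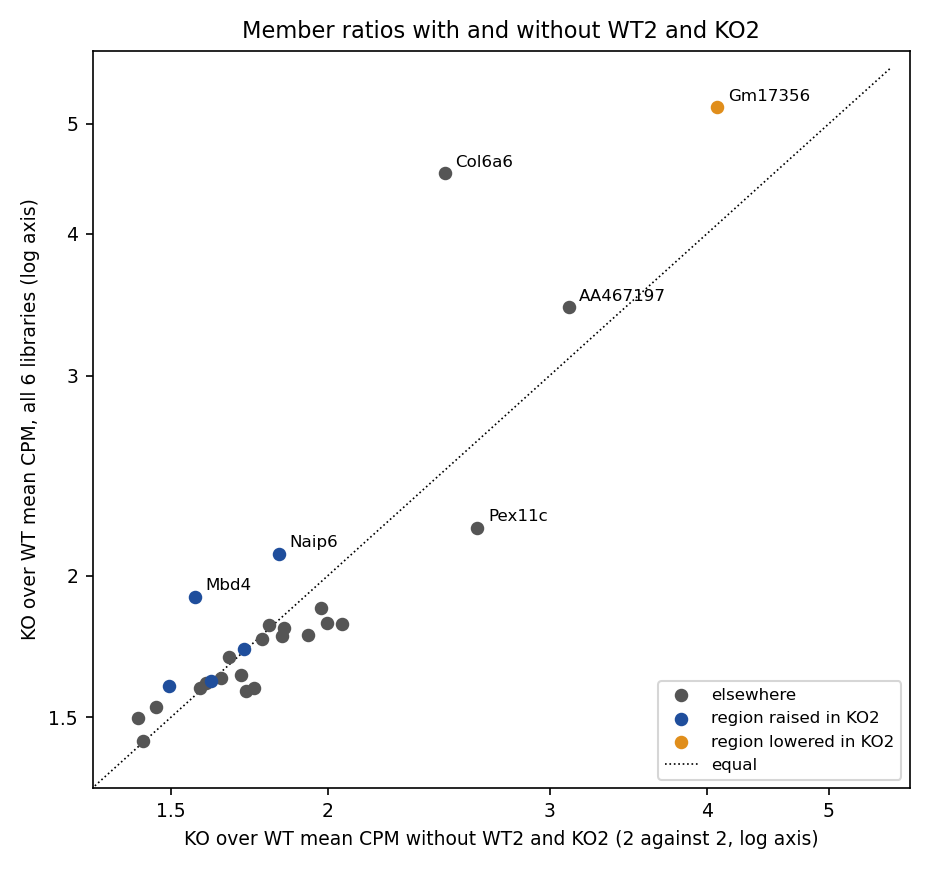
Mean CPM of the edited lines over that of the wild-type lines for the 27 members, with all 6 libraries (vertical, log axis) against the value without WT2 and KO2 (horizontal, log axis); colours mark members whose local median (genes within 5 Mb) differed by at least 0.3 (log2) between KO2 and the mean of KO1 and KO3. Most points lie near the dotted line of equality, and Col6a6 (4.53 against 2.48) lies farthest above it.

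Some members lie where the whole neighbourhood stood higher in KO2. The level of every placed gene of at least 5 CPM within 5 Mb of a member, as log2 over the wild-type mean, was summarised by its median. In KO2 this local median was 0.68 around Mbd4, 0.58 around Naip6, 0.58 around Adamts6, 0.51 around Crebl2 and 0.41 around Rsl1, while in KO1 and KO3 it lay between -0.09 and 0.16 around the same genes. Mbd4, Naip6 and Adamts6 were also highest in KO2 among the edited lines, and the part of the neighbourhood in their values was not tested. Crebl2 and Rsl1 were not set apart in KO2, at 0.978 and 1.04 times the mean of KO1 and KO3. KO1 and KO3 exceeded the wild-type lines in all 5, which the rule required of every member. Around Gm17356 the KO2 local median was -0.99 over 18 genes, yet Gm17356 itself was highest in KO2.

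Next to the members, expressed genes mostly did not share the separation. Of 54 flanking positions, 11 held a gene with every edited library above every wild-type library, a larger share than the 10.6% of all tested genes. Several did so by a narrow margin, with lowest edited over highest wild-type ratios such as 1.003 for Cdkn1b and 1.01 for Atg13. The share was not recomputed after TMM scaling. The 11 included Naip5 and Sp140, relatives of members whose reads may be shared with them. Only 1 position held a gene that reached the ratio of 1.3. That one was Ptp4a3, which lies 943646 bases from Jrk on chromosome 15 with no expressed gene between them, both being members. Between Mbd4 and Ift122, which meet at one end, Ift122 was at 11.0 to 11.6 CPM in the wild-type lines and at 12.7, 24.9 and 7.74 CPM in the edited lines. Rccd1 shares 11.5% of its exon bases with Prc1 on the other strand, and Prc1 was at 156 to 161 CPM against 143 to 179 CPM. Since Prc1 is far more abundant than Rccd1 (9.33 to 10.0 CPM in the wild-type lines), the Rccd1 counts could include Prc1 reads if strand was not used. In all, 13 of 26 members with a GENCODE model share exon bases with another annotated gene.

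Members were lower in level than the expressed background and tended to have more annotated exon bases, counted over all isoforms of a gene. Their median over-all CPM was 16.9, beside 59.2 for all rows that reached 5 CPM in their lowest edited library. Annotated exons covered a median of 5972 bases in 26 members and 4724 bases in 7876 background rows. The median coefficient of variation among wild-type lines was 9.74% for members and 6.03% for background, and among edited lines 12.5% and 13.7%.

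Promoters were available for 18 of the 27 members, as 250 bases before to 50 bases after the start site in RefSeq (GRCm38.p6), and were searched on both strands. The commonest motifs were common in both: the CCAAT box (CCAAT) was in 9 of 18 (50%) beside 43.9% of 7015 expressed genes, the GC box (GGGCGG) in 66.7% beside 71.8%, and TGGGAA, the core bound by RBPJ, in 38.9% beside 25.8%. The interferon-stimulated response element, the forkhead site TGTTTAC, the E2F forms TTTGGCGC and TTTCCCGC and the D-box TTATGTAA were in 0 of 18, against 3.59%, 3.04%, 1.37%, 2.82% and 0.570% of expressed genes. Of the other motifs searched, TTTGAA (CHR) was in 16.7% beside 14.5%, CCGGAAG (ETS) in 16.7% beside 24.5%, GAGGAAG (PU.1) in 16.7% beside 15.8%, TATAAA in 11.1% beside 7.56%, TGACGTCA (CRE) in 5.56% beside 4.02% and TTCNNNGAA (STAT) in 5.56% beside 8.21%. The E-box CACGTG was in 2 members, AA467197 and N4bp3 (11.1% beside 12.6%). Both are printed to show where it falls, with capitals marking it, from the strand of the gene: chr2:122637637-122637936, plus strand, for AA467197 and chr11:51651024-51651323, minus strand, for N4bp3.
AA467197 promoter: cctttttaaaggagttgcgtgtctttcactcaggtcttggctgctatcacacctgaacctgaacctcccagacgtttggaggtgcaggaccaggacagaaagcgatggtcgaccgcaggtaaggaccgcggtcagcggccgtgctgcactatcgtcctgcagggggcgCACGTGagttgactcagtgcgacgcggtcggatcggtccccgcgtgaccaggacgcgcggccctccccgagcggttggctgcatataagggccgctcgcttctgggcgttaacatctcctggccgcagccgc
N4bp3 promoter: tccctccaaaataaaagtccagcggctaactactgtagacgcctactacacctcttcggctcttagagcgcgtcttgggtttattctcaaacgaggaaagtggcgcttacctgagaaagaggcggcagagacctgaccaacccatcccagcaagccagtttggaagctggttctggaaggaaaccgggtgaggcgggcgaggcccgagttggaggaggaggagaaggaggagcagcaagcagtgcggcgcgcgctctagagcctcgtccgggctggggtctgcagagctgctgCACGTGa
The E-box begins at position -82 from the start site in AA467197 and at position 43 in N4bp3, and AA467197 also holds an AP-1 site (TGANTCA) at position -73. The AP-1 letters were in 2 of 18 members, AA467197 and Harbi1, beside 5.22% of expressed genes. Members as a group had a median promoter GC content of 55.2%, beside 61% for expressed genes.

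Of the pathway lists examined around the members, the interferon-stimulated genes had the highest median. Across 17 lists, 0 of 353 tested genes passed edgeR's adjusted threshold in either direction, and the lists were chosen with results of these data known. For interferon-stimulated genes the median log2 fold change was 0.80 among 27 tested, 25 of them above 0. By library totals, 9 had every edited library above every wild-type library, beside 10.6% of all tested genes. The 9 were not recounted after TMM scaling, where the share of all tested genes was 8.84%. The list median was 0.27 when KO2 was left out and 0.33 when WT2 was left out as well. Dhx58, an RNA sensor, was at 2.47 to 5.72 CPM and then at 4.76, 23.5 and 4.26 CPM, where KO2 alone stood above the wild-type lines.

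FOXO target genes, which include the member Tob1, had a median of 0.41 over 22 tested genes, with 19 above 0, and 0.16 without KO2 or 0.20 without WT2 and KO2. Insr, a classic FOXO target, was at 38.1 to 43.1 CPM in the wild-type lines and at 52.5, 50.4 and 64.95 CPM in the edited lines. p53 target genes had a median of 0.36 over 22 tested genes and of 0.13 without KO2 or 0.15 without WT2 and KO2. The median was 0.25 without WT2 alone, still above 0.01 over all tested genes. NRF2 and glutathione genes had a median of -0.23 over 18. The matrix list, which includes Col6a6, had a median of 0.05 over 6 tested genes, whose sign changed without WT1 (-0.02) and which was 0.28 without WT2 and KO2.

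**Figure D5:**
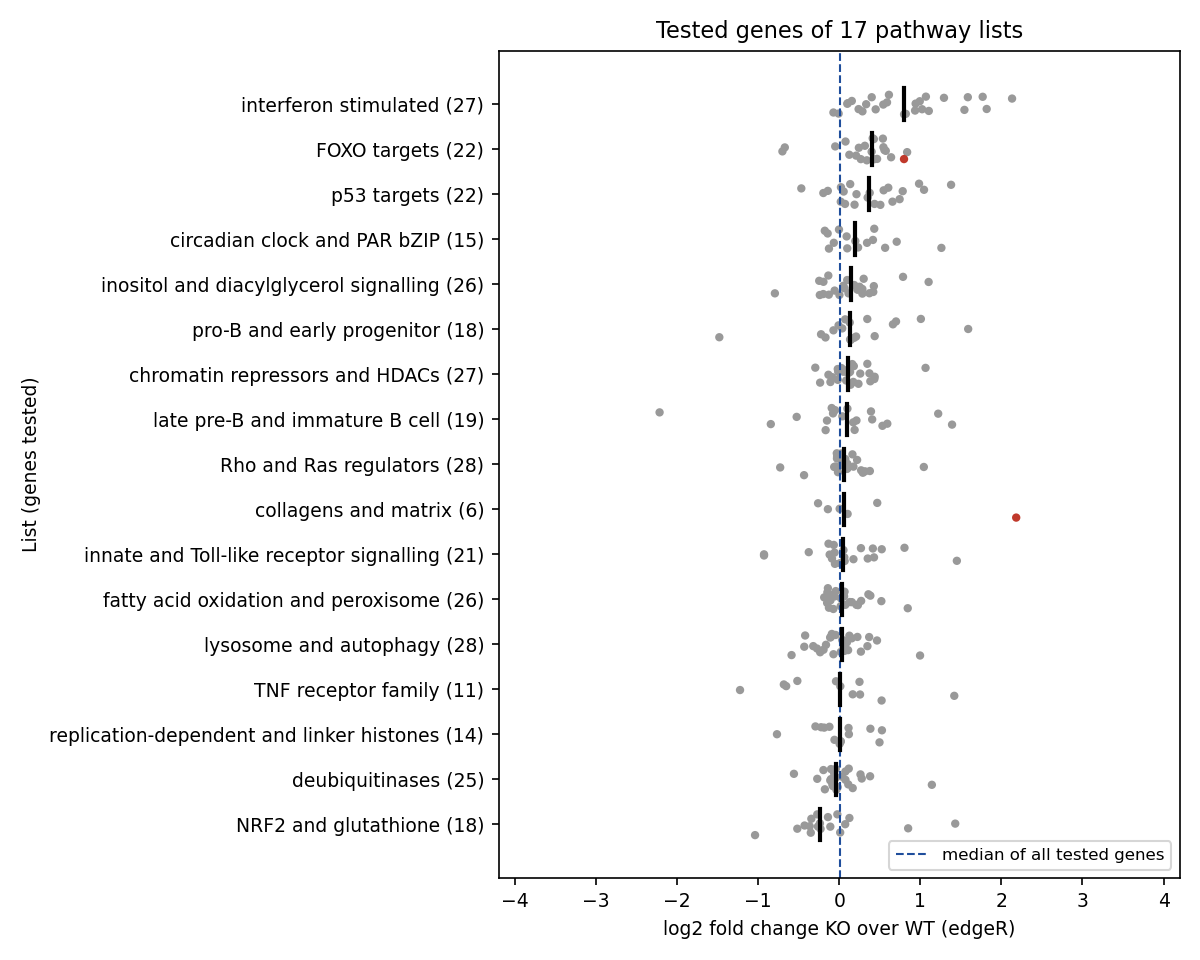
edgeR log2 fold change, edited over wild-type lines, for every tested gene of 17 pathway lists; black bars mark list medians, red points members and the dashed line the median of all tested genes (0.01). Interferon-stimulated genes have the highest median (0.80), and NRF2 and glutathione genes the lowest (-0.23).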

How the data were processed

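RNA from 6 mouse cell lines (3 per genotype) was sequenced from TruSeq RNA libraries, per the labels' protocols. The values are raw counts per gene deposited by the authors in 1 table. The submitters' processing notes name Trim Galore, STAR, DESeq2 and the build GRCm38; versions, roles, the annotation and use of strand: not given in the sources used here. No column was without a sample. The table pairs counts with symbols, and 66 rows repeat an earlier symbol.

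CPM was computed from library totals of 17859519 to 24108563 counts. The comparison of edited with wild-type lines was fitted over the whole table with edgeR 4.0.16 (TMM, filterByExpr, robust quasi-likelihood, R 4.3.3) and adjusted by Benjamini-Hochberg over 10896 genes at 0.05; log2 fold changes are from this fit. Alternatives were DESeq2 1.42.0, limma 3.58.1 (voom), other scalings and filters, a replicate block, and leaving out libraries. The code was tested on simulated data. Nothing in the labels says the lines came from separate cultures, so p-values measure only the spread between these libraries. Same-number libraries deviated together (correlations of 0.33, 0.64 and 0.46 for numbers 1 to 3), which meets the criterion for pairing (over 0.1 in each), although WT1 correlated more with KO3 (0.41); the fit reported has no block.

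The members, lists, families and classes were chosen with earlier results of these data known. Members named with values were the 12 with the largest ratio, the 8 highest in level, the 4 nearest each side of the threshold, list members, up to 4 per class and adjacent members; others are said to be named after their values were seen. Gene positions and promoters are from RefSeq (GRCm38.p6), matched for 23 members by current and for 4 by older symbol, and exons from GENCODE vM21 (GRCm38). A few genes of the lists and families are not reported here.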

Additional observations from a re-analysis of the deposited data

How the results depend on the processing

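The count of 27 members depends on where the thresholds lie. It was 24 with TMM-scaled CPM or with DESeq2 size factors, 18 with a floor of 10 CPM, 44 with a floor of 1 CPM, 76 at a ratio of 1.2, 6 at 1.5 and 1 at 2. TMM scaling kept 23 of the 27 and lost Ccbl1, Fbxl20, Il12a and Rccd1; DESeq2 size factors lost these and Sp110. Leaving out 1 library gave 36 to 155 genes, with all 27 members among them by construction: 79 without WT2, 45 without WT3, 125 without KO1, 155 without KO2 and 83 without KO3. Without WT2 and KO2 the count was 219, and as same-number ratios (the replicate block) 107. The number of genes called was 0 in all fits tried except DESeq2, which called 218; with the replicate block the paired fit also called 0 (smallest adjusted p 0.506), beside 1030 genes at an unadjusted p under 0.05 in edgeR without a block, and 985 with it. The block changed no call. Leave-one-out fits called 0 genes each, with smallest adjusted p from 0.178 (without KO2) to 0.997 (without WT3). All 324 recomputed log2 fold changes of members were above 0, which the selection rule made nearly certain, so it is not read as support. Of these, 322 moved by less than the spread within groups. The exceptions were Col6a6 without WT2 and KO2 (1.27) and Mbd4 without KO2 (0.54). The median of the interferon-stimulated list ranged from 0.27 to 0.82 and that of FOXO targets from 0.16 to 0.42. Depth limits the 9 members under 10 CPM in their lowest edited library, where a value can rest on as few as 32 counts.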

Other observations

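Below the floor of 5 CPM, 17 rows met the ratio with a lowest edited library of 1 to 5 CPM. They are named after their values were seen. Oas1a and Oas1b, neighbouring genes of the interferon-induced 2-prime-5-prime oligoadenylate synthetase family, were among them. Oas1b was at 0.995, 1.21 and 1.14 CPM in the wild-type lines and at 3.14, 2.03 and 2.01 CPM in the edited lines, and Oas1a at 1.87, 1.26 and 2.03 CPM and then at 3.02, 11.3 and 3.87 CPM. These paralogs are similar, so reads may be shared. Slfn5, another interferon-inducible gene, was at 1.66 to 2.17 CPM against 2.84 to 4.76 CPM. Etv1, an ETS transcription factor gene, was at 2.41 to 3.66 CPM against 4.93 to 6.32 CPM, and Nuak2, which encodes a kinase related to AMPK, at 2.41 to 3.31 CPM against 4.51 to 4.702 CPM.

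The mirrored rule, with the lowest wild-type library at least 1.3 times the highest edited library, was met by 23 genes of any symbol, beside 41 for the rule used here. With TMM-scaled CPM, added after seeing the data, the counts were 30 and 35, and with DESeq2 size factors 28 and 37.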
